A study of Homo sapiens with 6 samples.

Results

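The EGFR family of receptors and ligands was examined in HCT116, a cell line from a human colorectal cancer. It was taken as 8 genes matched by symbol among the 26255 gene symbols of the expression files, and all 8 had a row. The receptors were EGFR, ERBB2 and ERBB3, and the ligands were AREG (amphiregulin), EREG (epiregulin), TGFA (transforming growth factor alpha), HBEGF (heparin-binding EGF-like growth factor) and BTC (betacellulin). RNA-seq libraries were available for 3 groups of 2 libraries each: parent HCT116 cells, HCT116 cells given siLINC01534-1, and HCT116 cells given siLINC01534-2. Both siRNAs are directed against LINC01534, a long noncoding RNA, and were delivered by lipid transfection. The parent cells were not described as transfected, so the effect of a given siRNA and that of transfection itself cannot be told apart against parent. All groups share the cell line, and no dose, time point or separate culture was given in the labels, so p-values here measure the spread between these libraries, which may be technical.

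EGFR family receptors are tyrosine kinases of the cell surface that act in pairs. A ligand of the EGF type is made as a precursor held in the membrane, is cut free by a metalloprotease, and then joins EGFR to itself or to another receptor of the family, after which the RAS and PI3-kinase pathways are switched on. ERBB2 has no known ligand of its own and serves as a partner. ERBB3 has a weak kinase and binds PI3-kinase strongly. In colorectal epithelium and in its tumors, AREG and EREG are well known ligands of EGFR.

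The unit of the values is FPKM, the number of fragments scaled by transcript length and by library size, so that levels can be compared between genes per length. Depth was estimated from genes with 1 annotated transcript and values above 0 in at most 2 libraries. Each such value was assumed to be worth 1 read. The median estimate was between 8650000 and 10300000 reads per library. Lower quartiles ran from 4900000 to 8630000 and upper quartiles from 8810000 to 10500000. LINC01534 itself was at 0.285 and 0.571 FPKM in parent cells, against 0 and 0.283 in siLINC01534-1 libraries and 0.660 and 0.551 in siLINC01534-2 libraries. On the estimated depth, the parent levels are worth about 1 and 2 reads, those of siLINC01534-1 libraries 0 and 1, and each siLINC01534-2 level about 2. So few reads leave a difference in LINC01534 undetectable at this depth, and the groups are named by their labels. Of 8 colorectal epithelial markers, 7 reached 1 FPKM, VIL1 being the exception. Of 10 markers of other cell types, 2 reached 1 FPKM (COL1A1 and SYP), while the immune marker CD3E and the fibroblast marker DCN were listed at 0 in all libraries. The summed FPKM of those 10 markers ran from 3.99 to 4.15 in parent, from 6.95 to 7.52 with siLINC01534-1 and from 4.99 to 5.63 with siLINC01534-2. The summed FPKM of the 8 epithelial markers ran from 3568 to 3641 in parent, from 3021 to 3029.5 with siLINC01534-1 and from 3473 to 3652 with siLINC01534-2. The part of either marker list in the results was not tested.

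Several members differed between the siRNAs, and 4 sites in 3′ UTRs are shown for that reason. An siRNA can lower other mRNAs that pair with bases 2 to 8 of its antisense strand, the seed. The complement of the siLINC01534-1 seed is GAATAAA, which contains the polyadenylation signal AATAAA, and that of the siLINC01534-2 seed is TTCGAGT. Looking at the longest coding transcript per gene, GAATAAA occurred 1 time in the 3′ UTR of each of 4 members (BTC, EGFR, ERBB3 and TGFA) and in 26.7% of the 10590 tested genes with an annotated 3′ UTR. No annotated coding transcript of AREG, EREG, HBEGF or ERBB2 (2, 1, 1 and 11 transcripts, respectively) held it in the 3′ UTR. TTCGAGT was in 0 of the 8 members and in 1.91% of tested genes. The sites are shown with 10 bases on each side and the 7-mer in capitals. They lie at chr12:56497253-56497279 (plus strand) in ERBB3, at chr2:70677157-70677183 (minus strand) in TGFA, at chr7:55276956-55276982 (plus strand) in EGFR and at chr4:75670242-75670268 (minus strand) in BTC, in GRCh37 (hg19).
ERBB3: atacgtgtctGAATAAAaatgccaaag
TGFA: ttactggtagGAATAAAggtaggggtt
EGFR: cgtcagagtaGAATAAAaggctgggta
BTC: aaggagcttgGAATAAAtatccattag
In ERBB3 only 20 bases of the transcript follow the 7-mer. In BTC, EGFR and TGFA, 283, 2349 and 2751 bases follow it. The site was in 5 of 12 annotated coding transcripts of ERBB3, 4 of 7 of EGFR, 1 of 7 of TGFA and 1 of 2 of BTC. A match is a description of these letters and not evidence of binding.

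EREG and AREG were higher with each siRNA, and their promoters are shown for that reason. The sequences are from RefSeq (GRCh38.p14), run from 250 bases before to 50 bases after the start of the gene, and were given for 7 of the 8 members, all but ERBB3. The EREG promoter lies at chr4:74364895-74365194 and the AREG promoter at chr4:74444886-74445185, both on the plus strand. The capitals mark TATAAA (the letters of a TATA box), the letters CCAAT of a CCAAT box, and the cyclic AMP response element TGACGTCA.
EREG: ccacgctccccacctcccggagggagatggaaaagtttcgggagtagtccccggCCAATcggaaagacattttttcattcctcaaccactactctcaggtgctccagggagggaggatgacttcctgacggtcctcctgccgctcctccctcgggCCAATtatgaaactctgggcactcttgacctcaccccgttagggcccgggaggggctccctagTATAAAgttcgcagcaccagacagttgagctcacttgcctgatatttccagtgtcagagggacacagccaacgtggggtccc
AREG: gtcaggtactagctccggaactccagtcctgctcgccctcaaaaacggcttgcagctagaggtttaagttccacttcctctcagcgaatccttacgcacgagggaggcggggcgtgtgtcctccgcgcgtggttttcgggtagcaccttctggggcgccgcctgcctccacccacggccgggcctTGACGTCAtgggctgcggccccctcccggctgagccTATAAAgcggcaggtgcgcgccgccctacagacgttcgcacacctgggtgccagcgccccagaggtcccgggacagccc
TATAAA begins 32 bases before the start of EREG and 29 bases before that of AREG, and 11.5% of the 35116 promoters of this length hold it (all motifs were sought on both strands). TGACGTCA begins 65 bases before the start of AREG and is in 1.85% of promoters. CCAAT, found in 34.6% of promoters, is in the EREG window at 196 and 95 bases before the start. The AP-1 letters TGANTCA (7.71% of promoters) and the C/EBP-ATF letters TGATGNAA (3.62%) were in neither window. The GC box letters GGGCGG (45.0% of promoters) were in the AREG window, 9 bases before the start, and not in that of EREG, and no motif overlapped another. The motifs were chosen after the expression values were known. A TATAAA is also in a window of EGFR and a CCAAT in that of ERBB2, so neither is particular to EREG and AREG. Among the windows of members, TGACGTCA was in that of AREG only.

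EREG was by far the most abundant member in parent cells. Its FPKM was 143 and 134, which placed it at rank 658 of 26255 symbols by the parent mean. ERBB2 came next with 26.0 and 26.2, followed by TGFA (22.0 and 19.4), EGFR (13.6 and 12.9) and ERBB3 (8.32 and 8.49), each separated from its neighbours in both libraries. HBEGF (4.46 and 5.99) and AREG (3.88 and 5.38) overlapped in level. BTC, at 0.709 and 0.977, was the lowest. Its mean over all 6 libraries was 0.988, just under the minimum of 1 that was set for testing, so 7 of the 8 members were tested. EREG made up 82.2% and 80.9% of the summed FPKM of the 5 ligands in parent cells. This share was 88.7% and 88.8% in siLINC01534-1 libraries and 84.2% and 84.0% in siLINC01534-2 libraries.

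**Figure D1:**
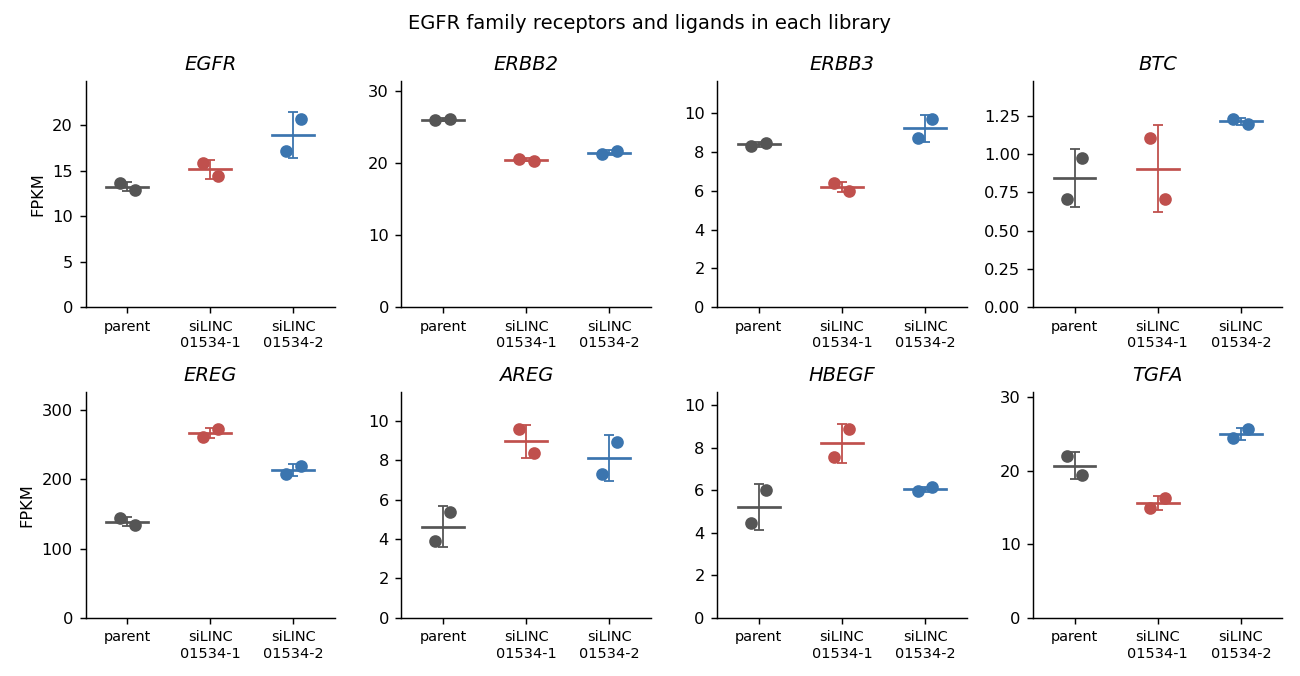
FPKM (y axis, linear, from 0) of each EGFR family member in every library (points), with the mean (horizontal line) and SD (bars) of the 2 libraries of parent, siLINC01534-1 and siLINC01534-2. EREG, AREG and EGFR lie higher in all 4 siLINC01534 libraries than in both parent libraries, and ERBB2 lies lower in all 4. TGFA and ERBB3 lie below parent with siLINC01534-1 and above it with siLINC01534-2.

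The log2(FPKM + 1) values were fitted with limma for all 12203 genes whose mean FPKM reached 1, with Benjamini-Hochberg adjustment and a threshold of 0.05. When the siRNAs were averaged and set against parent, 4 of 7 members passed, with EREG, AREG and EGFR higher and ERBB2 lower. Over all genes the share was 37.2%, with 17.1% higher and 20.1% lower. This background and those below were not matched by expression level. With a minimum mean FPKM of 5, 4 of 7 members passed for both siRNAs beside 4130 of 9106 genes. With siLINC01534-1 it was 6 of 7 beside 4886 of 9106, and with siLINC01534-2 5 of 7 beside 2775 of 9106. With all 4 siLINC01534 libraries treated as a single group, EREG alone of the 7 passed (limma adjusted p = 0.040), beside 361 of all 12203 genes. ERBB2 (limma adjusted p = 0.057), AREG (0.055) and EGFR (0.25) did not. The same 4 members had all siLINC01534 libraries on 1 side of both parent libraries, as did 38.3% of all genes. With siLINC01534-1, 6 of 7 passed against a background of 46.3% of genes (21.8% higher, 24.5% lower). EREG, AREG and HBEGF were higher and ERBB2, ERBB3 and TGFA lower. No tested member overlapped with parent there, and neither did 75.7% of genes. With siLINC01534-2, 4 of 7 passed against a background of 22.8% of genes (11.1% higher, 11.8% lower), with EREG, AREG and EGFR higher and ERBB2 lower. With that siRNA 6 of 7 members did not overlap with parent, as was the case for 64.9% of genes. The comparisons share the parent libraries and are given side by side. EREG, AREG and ERBB2 passed with each siRNA in the same direction, which 13.5% of all genes did. TGFA and ERBB3 had opposite signs with the siRNAs, called or not, as did 35.8% of genes. The median absolute log2 difference of the 7 members for both siRNAs was 0.33, and that of all genes was 0.16. In bulk libraries, a change in the share of cells that make an RNA and a change per cell cannot be told apart.

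EREG rose with each siRNA and kept its calls under every alternative tried. From 143 and 134 FPKM in parent cells it reached 261 and 272 in siLINC01534-1 libraries and 207 and 219 in siLINC01534-2 libraries, with no overlap between any groups. The ratio of means was 1.73 for both siRNAs, 1.92 for siLINC01534-1 and 1.54 for siLINC01534-2. The log2 difference was 0.78 ± 0.043 (SE; limma adjusted p = 3.3e-04) for both, and 244 of the tested genes had a higher one. EREG also differed between the siRNAs, being higher with siLINC01534-1 by 0.32 on the log2 scale (limma adjusted p = 0.0053). An estimated 5900 to 12000 reads per library stand behind these values.

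AREG rose by a similar factor from a far lower level. It was at 3.88 and 5.38 FPKM in parent cells, against 9.56 and 8.37 in siLINC01534-1 libraries and 7.29 and 8.95 in siLINC01534-2 libraries. Neither siRNA group overlapped with parent, while the siRNA groups overlapped each other. The ratio of means was 1.84 for both siRNAs, and the log2 difference was 0.77 ± 0.14 (SE; limma adjusted p = 0.0097), or 0.83 with siLINC01534-1 (limma adjusted p = 0.0090) and 0.70 with siLINC01534-2 (limma adjusted p = 0.031). The difference between the siRNAs was 0.13, with a 95% interval from -0.26 to 0.53. An estimated 40 to 96 reads per library make AREG less precise than EREG. Leaving out the first parent library ended the call for both siRNAs (0.58, limma adjusted p = 0.053) and for siLINC01534-2 (0.51, limma adjusted p = 0.11). The call for siLINC01534-2 was also lost without either library of siLINC01534-1 (limma adjusted p = 0.065 and 0.060) or of siLINC01534-2 (0.068 and 0.14), and that for siLINC01534-1 without its first library (0.060).

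The level of AREG itself is uncertain for a further reason. In GRCh37 a second copy of the gene, AREGB, starts 169.8 kb downstream of AREG on the same strand. The longest coding AREG transcript and the AREGB transcript were identical in 1233 of 1234 aligned bases, and 93.5% of the 75-base windows of AREG occurred exactly in the copy. AREGB had no row among the gene symbols, and how reads that match both copies were counted was not stated.

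HBEGF and TGFA did not share this pattern. HBEGF, a ligand of EGFR and ERBB4, was at 4.46 and 5.99 FPKM in parent cells, against 7.57 and 8.86 in siLINC01534-1 libraries and 5.97 and 6.13 in siLINC01534-2 libraries. The siLINC01534-1 libraries lay above parent by 0.57 ± 0.14 on the log2 scale (SE; limma adjusted p = 0.019), a call that was lost without the first parent library (0.40, limma adjusted p = 0.058) or the second siLINC01534-1 library (0.47, limma adjusted p = 0.096). The siLINC01534-2 libraries overlapped with parent (0.19, 95% interval from -0.15 to 0.53). For both siRNAs the log2 difference of 0.38 had a limma adjusted p of 0.051, and it was 0.20 (limma adjusted p = 0.22) without the first parent library and 0.56 (limma adjusted p = 0.030) without the second.

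TGFA, a ligand of EGFR alone, moved apart with the siRNAs. It was at 22.0 and 19.4 FPKM in parent cells, against 15.0 and 16.2 in siLINC01534-1 libraries and 24.4 and 25.6 in siLINC01534-2 libraries. The siLINC01534-1 libraries were below parent by a log2 difference of -0.38 ± 0.075 (SE; limma adjusted p = 0.010), a call lost without the first of them (-0.33, limma adjusted p = 0.060). The siLINC01534-2 libraries were above parent without passing the threshold (0.27, limma adjusted p = 0.057). For both siRNAs the difference was -0.059 (95% interval from -0.22 to 0.10), and it was 0.027 without the first parent library. BTC, a ligand of EGFR and ERBB4, was at 0.709 and 0.977 FPKM in parent cells, against 1.11 and 0.705 in siLINC01534-1 libraries and 1.23 and 1.20 in siLINC01534-2 libraries. At an estimated 17 to 30 reads per library, and without the filter on low values, its log2 difference for both siRNAs was 0.16 (95% interval from -0.14 to 0.46).

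Among the receptors, ERBB2 was lower with each siRNA. It was at 26.0 and 26.2 FPKM in parent cells, against 20.6 and 20.4 in siLINC01534-1 libraries and 21.3 and 21.7 in siLINC01534-2 libraries. No siLINC01534 library reached the parent level, and the ratio of means was 0.805 for both siRNAs. The log2 difference was -0.30 ± 0.033 (SE; limma adjusted p = 0.0022) for both, -0.33 with siLINC01534-1 (limma adjusted p = 0.0016) and -0.27 with siLINC01534-2 (limma adjusted p = 0.0092). The call for siLINC01534-2 was lost without either parent library (limma adjusted p = 0.053 and 0.056). The siRNAs differed by -0.066, with a 95% interval from -0.16 to 0.031. MIEN1, on the opposite strand, shares 571 of the 10321 exonic bases of ERBB2 and was at 56.7 to 69.9 FPKM. Whether the counting used strand was not stated.

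EGFR was higher in the siLINC01534-2 libraries. It was at 13.6 and 12.9 FPKM in parent cells, against 15.9 and 14.4 in siLINC01534-1 libraries and 17.2 and 20.7 in siLINC01534-2 libraries, and no group overlapped with another. The log2 difference was 0.33 ± 0.085 (SE; limma adjusted p = 0.032) for both siRNAs, 0.18 with siLINC01534-1 (95% interval from -0.068 to 0.42) and 0.48 with siLINC01534-2 (limma adjusted p = 0.024). The call for both siRNAs was lost under 7 of 14 alternatives. For both siRNAs it was lost without the first or the second parent library (limma adjusted p = 0.11 and 0.16) or without the first or the second siLINC01534-1 library (0.088 and 0.053). For siLINC01534-2 it was lost without the first or the second parent library (limma adjusted p = 0.091 and 0.11), the first siLINC01534-1 library (0.0502) or the second siLINC01534-2 library (0.076).

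ERBB3 was lower with siLINC01534-1, and the siRNAs differed from each other. It was at 8.32 and 8.49 FPKM in parent cells, against 6.39 and 6.01 in siLINC01534-1 libraries and 8.73 and 9.73 in siLINC01534-2 libraries. The siLINC01534-1 libraries lay below parent by a log2 difference of -0.39 ± 0.070 (SE; limma adjusted p = 0.0077). The siLINC01534-2 libraries lay above parent by 0.12 (95% interval from -0.055 to 0.29), and the siRNAs differed by -0.51 (limma adjusted p = 0.0037). For both siRNAs together the difference was -0.13 (95% interval from -0.28 to 0.018).

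**Figure D2:**
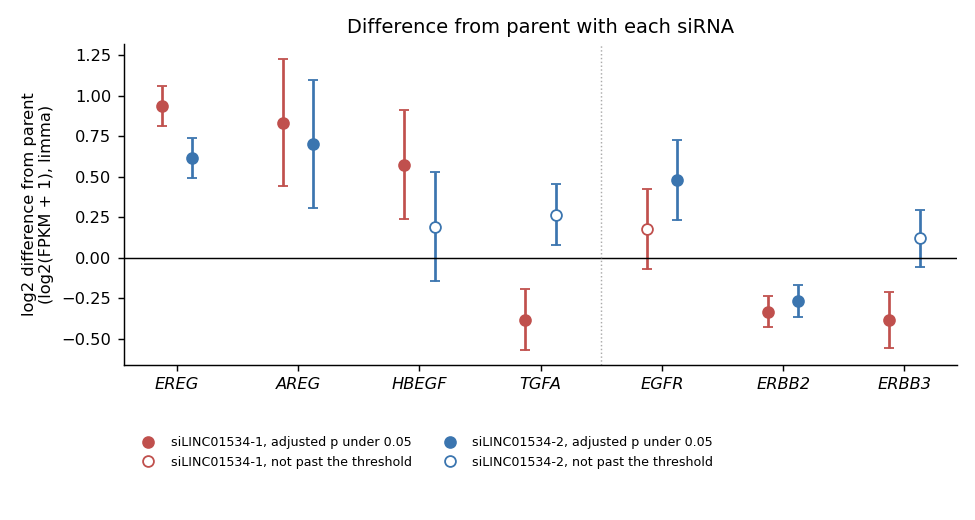
Difference from parent on the log2(FPKM + 1) scale (y axis) for the 7 tested members (x axis; ligands left of the dotted line, receptors right), with the 95% interval from limma. Filled points passed an adjusted p of 0.05. EREG, AREG, EGFR and HBEGF are above 0 and ERBB2 is below 0 with both siRNAs, while TGFA and ERBB3 lie on opposite sides of 0. EGFR is filled with siLINC01534-2 only and HBEGF with siLINC01534-1 only.

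The receptors also stood in different proportions. In FPKM, the ratio of ERBB2 to EGFR was 1.91 and 2.03 for parent cells. Libraries of siLINC01534-1 gave 1.30 and 1.41 and libraries of siLINC01534-2 gave 1.24 and 1.05, all below parent. The order of members by mean level also differed between the groups. With siLINC01534-2, TGFA was above ERBB2 in both libraries, whereas ERBB2 was above TGFA in parent and with siLINC01534-1. With siLINC01534-1, AREG and HBEGF were above ERBB3 in both libraries, whereas both were below it in parent.

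The siRNAs were then compared with each other, a comparison in which both groups were transfected. EREG was higher and TGFA and ERBB3 were lower with siLINC01534-1, so that 3 of 7 members passed against a background of 41.8% of genes (19.5% higher, 22.3% lower). The groups did not overlap for 6 of 7 members and for 73.5% of genes, AREG being the member that overlapped. The log2 difference of TGFA was -0.65 ± 0.075 (SE; limma adjusted p = 0.0021). EGFR (-0.30, limma adjusted p = 0.057) and HBEGF (0.38, limma adjusted p = 0.070) did not pass. EGFR passed without the first siLINC01534-2 library (-0.43, limma adjusted p = 0.027) and was at -0.17 without the second (limma adjusted p = 0.18). HBEGF passed without the first or the second parent library (limma adjusted p = 0.036 and 0.035). The 4 members whose 3′ UTR holds GAATAAA, the sites printed above, had differences of -0.65 (TGFA), -0.51 (ERBB3), -0.30 (EGFR) and, without the filter on low values, -0.23 (BTC, 95% interval from -0.57 to 0.12). The 4 without it had -0.066 (ERBB2), 0.13 (AREG), 0.32 (EREG) and 0.38 (HBEGF). The values of the first 4 were thus below those of the other 4, although several of their intervals overlap. Against parent, siLINC01534-1 libraries were lower in TGFA (-0.38) and ERBB3 (-0.39), but not in EGFR (0.18) or BTC (0.044, without the filter). ERBB2, without the 7-mer, was also lower (-0.33), while AREG, EREG and HBEGF were higher. With siLINC01534-2, EGFR was above parent by 0.48. The 3′ UTRs were also of unlike length. Those with the 7-mer had 3575 (TGFA), 1450 (ERBB3), 6011 (EGFR) and 1918 bases (BTC). Those without it had 317 (ERBB2), 265 (AREG), 3941 (EREG) and 1456 bases (HBEGF). Over all tested genes with an annotated 3′ UTR, the median difference was -0.13 for the 2830 genes with the 7-mer (quartiles -0.43 and 0.085) and 0.032 for the 7760 without it (quartiles -0.15 and 0.22). Of the genes with the 7-mer, 65.0% were below 0, and 45.6% of those without it. Genes with and without the 7-mer were not matched by 3′ UTR length. The part of the seed or of that length in these differences was not tested.

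**Figure D3:**
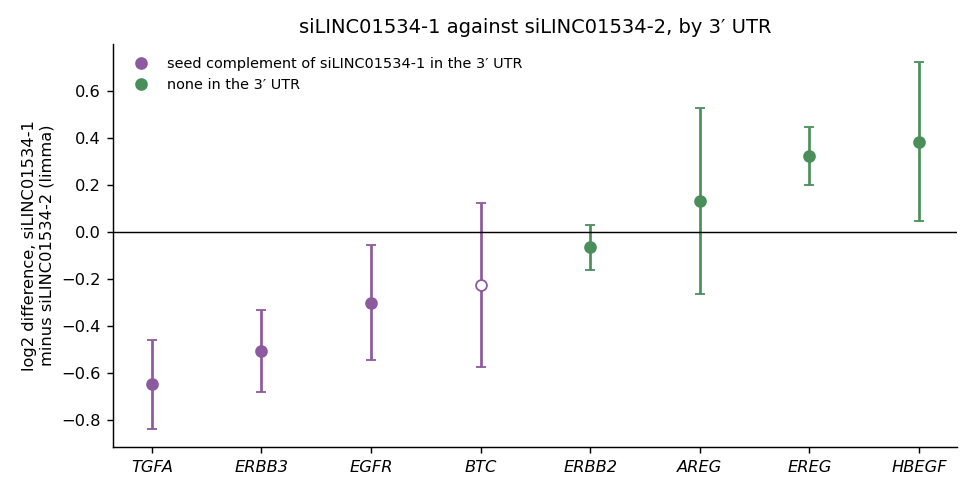
Difference between siLINC01534-1 and siLINC01534-2 on the log2(FPKM + 1) scale (y axis, with the 95% interval from limma) for the 8 members (x axis), colored by whether the 3′ UTR holds the complement of the siLINC01534-1 seed. BTC (open) is from the fit without the filter on low values. The 4 members with the complement run from -0.65 to -0.23 and the 4 without it from -0.066 to 0.38. Parent is not part of this comparison, and with siLINC01534-1 EGFR and BTC were not below parent (0.18 and 0.044).

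EREG, AREG and BTC lie in a cluster of ligand genes on chromosome 4, which also holds EPGN (epigen). In GRCh37, EPGN is at 75174187-75182506, EREG at 75230862-75254466 and AREG at 75310853-75320722, all on the plus strand, and BTC is at 75669969-75719733 on the minus strand. EREG and AREG are thus neighbours whose starts are 80.0 kb apart. EPGN was under the minimum, at 0.159 and 0.509 FPKM in parent cells, against 0.385 and 0.525 in siLINC01534-1 libraries and 0.561 and 0.383 in siLINC01534-2 libraries, and the groups overlapped. The other members lie elsewhere, EGFR at 55086710-55279321 of chromosome 7, ERBB2 at 37844167-37886679 of chromosome 17, ERBB3 at 56470583-56497289 of chromosome 12, TGFA at 70674416-70781325 of chromosome 2 (minus strand) and HBEGF at 139712428-139726188 of chromosome 5 (minus strand).

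**Figure D4:**
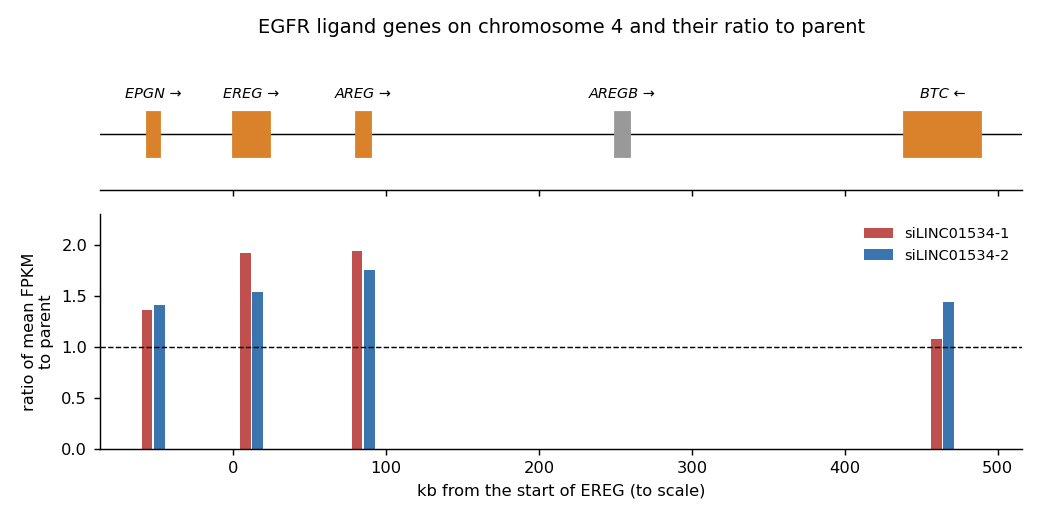
Genes of the chromosome 4 ligand cluster to scale (top; x axis in kb from the start of EREG, arrows give the strand), and the ratio of mean FPKM to parent with each siRNA (bars; the dashed line is a ratio of 1). EREG has ratios of 1.92 and 1.54 and AREG of 1.94 and 1.75, and AREGB (grey) has no row in the files.

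The rest of the pathway was described by 4 lists of 74 genes, of which 62 were tested. For both siRNAs, 17 of the 62 were higher and 12 lower (46.8%, background 37.2%). ADAM17 was the 1 gene of the 62 that passed with all 4 siLINC01534 libraries treated as a single group (limma adjusted p = 0.011). In that fit 361 of all 12203 genes passed. With siLINC01534-1, 20 were higher and 13 lower (53.2%, background 46.3%), and with siLINC01534-2, 4 were higher and 9 lower (21.0%, background 22.8%). Between the siRNAs, 21 were higher and 19 lower with siLINC01534-1 (64.5%, background 41.8%). These backgrounds were not matched by expression level. With a minimum mean FPKM of 5, 25 of 53 pathway genes passed for both siRNAs, beside 4130 of 9106 of all genes. With siLINC01534-1 it was 30 of 53 beside 4886 of 9106, and with siLINC01534-2 15 of 53 beside 2775 of 9106. Between the siRNAs it was 33 of 53 beside 4427 of 9106. Single lists were not counted at that minimum. Of the other family members only NRG4, a ligand of ERBB4, was tested. NRG4 was at 1.25 and 1.10 FPKM in parent cells, against 2.84 and 2.74 in siLINC01534-1 libraries and 1.16 and 0.968 in siLINC01534-2 libraries, and passed with siLINC01534-1 (log2 difference 0.80, limma adjusted p = 0.0030). Its receptor ERBB4 was at or near 0, with a highest value of 0.0096 FPKM, and EGF, EPGN, NRG1, NRG2 and NRG3 were under the minimum.

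Of the 11 tested genes of ligand release, 4 were higher and 0 lower for both siRNAs, a share of 36.4% beside 37.2% of all genes. ADAM17, the metalloprotease that cuts AREG, EREG, TGFA and HBEGF free of the membrane, was at 16.3 and 15.8 FPKM in parent cells, against 29.8 and 29.3 in siLINC01534-1 libraries and 26.1 and 26.3 in siLINC01534-2 libraries. The siLINC01534 libraries lay above parent, by 0.76 ± 0.035 on the log2 scale (SE; limma adjusted p = 2.1e-04), a size close to those of EREG and AREG. RHBDF1, a carrier of ADAM17 to the cell surface, was higher by 0.32 (limma adjusted p = 0.018). FURIN, which removes the inhibitory domain of ADAM17, was higher by 0.14 (limma adjusted p = 0.028). These are averages of both siRNAs, and with siLINC01534-2 alone neither passed (0.16 and 0.088, limma adjusted p = 0.22 and 0.19). RHBDF1 lost its call without the first or the second parent library (limma adjusted p = 0.10 and 0.061) or the first siLINC01534-1 library (0.052). FURIN lost it without any of 5 libraries, the exception being the first siLINC01534-2 library (limma adjusted p from 0.063 to 0.14). ADAM12, RHBDL2 and TIMP3 were under the minimum.

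Of the 17 receptor brakes and turnover genes, 4 were higher and 3 lower for both siRNAs, a share of 41.2% beside 37.2% of all genes. ERRFI1, which binds the EGFR kinase and inhibits it, was at 131.6 and 126.0 FPKM in parent cells, against 159 and 157 in siLINC01534-1 libraries and 209.6 and 217 in siLINC01534-2 libraries. All 4 siLINC01534 libraries were above parent, by 0.51 ± 0.033 (SE; limma adjusted p = 4.9e-04), and the increase was larger with siLINC01534-2. UBASH3B, a phosphatase that binds the ubiquitin ligase CBL, was lower by 0.36 (log2 difference -0.36, limma adjusted p = 0.018). With siLINC01534-1 alone UBASH3B did not pass (-0.24, limma adjusted p = 0.085). EPS15 and HGS, which act in the uptake and sorting of receptors, were higher by 0.25 and 0.12 (limma adjusted p = 0.015 and 0.023). With siLINC01534-2 alone neither of them passed (0.12 and 0.080, limma adjusted p = 0.21 and 0.14). Each of these 3 smaller calls was lost without the first or the second parent library (limma adjusted p from 0.071 to 0.12). UBASH3B and HGS also lost it without the first siLINC01534-1 library (limma adjusted p = 0.058 for each), and HGS without the first siLINC01534-2 library (0.056) or without the trend in the fit (0.060). PTPN1, a phosphatase that acts on EGFR and was picked out after its values were seen, was at 36.1 and 36.4 FPKM in parent cells, against 18.4 and 17.1 in siLINC01534-1 libraries and 38.7 and 37.3 in siLINC01534-2 libraries. Its log2 difference was -0.99 (limma adjusted p = 1.3e-04) with siLINC01534-1 and 0.066 (95% interval from -0.057 to 0.19) with siLINC01534-2.

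Of the 33 tested adaptors and proximal signalling genes, 8 were higher and 9 lower for both siRNAs, a share of 51.5% beside 37.2% of all genes. SOS2, an exchange factor that loads RAS with GTP, was at 2.80 and 2.72 FPKM in parent cells, against 5.21 and 5.18 in siLINC01534-1 libraries and 4.08 and 3.31 in siLINC01534-2 libraries (log2 difference 0.52, limma adjusted p = 0.0076). Without the second parent library its adjusted p was 0.054 in limma. PIK3R2 and PIK3R1, regulatory subunits of PI3-kinase, were lower, with log2 differences of -0.52 (limma adjusted p = 0.0013) and -0.40 (limma adjusted p = 0.016). PIK3R1 lost its call without the first or the second parent library (limma adjusted p = 0.063 and 0.096). Most of the decrease of PIK3R2 came with siLINC01534-2, where it was at 15.5 and 14.8 against 29.2 and 29.3 in parent and 27.8 and 25.5 with siLINC01534-1. VAV2 was lower by a log2 difference of -0.41 (limma adjusted p = 0.0027). Most of that decrease came with siLINC01534-1, where VAV2 was at 12.1 and 11.1 FPKM. It was at 18.4 and 19.3 in parent and at 17.0 and 16.6 with siLINC01534-2. With siLINC01534-2 alone, SOS2, PIK3R1 and VAV2 passed under none of the alternatives, nor did PIK3R2 with siLINC01534-1 alone. With siLINC01534-2 the log2 difference, leaving out 1 library, ran from 0.20 to 0.43 for SOS2 and from -0.41 to -0.24 for PIK3R1. GAB1 and STAT5A were under the minimum. Of all 62 genes, 4 (6.45%) passed against parent in opposite directions with the siRNAs, as did 2.12% of all tested genes. SH3KBP1, PTPRJ and PLCG1 were higher with siLINC01534-1 and lower with siLINC01534-2, and MAP2K1 was the reverse.

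**Figure D5:**
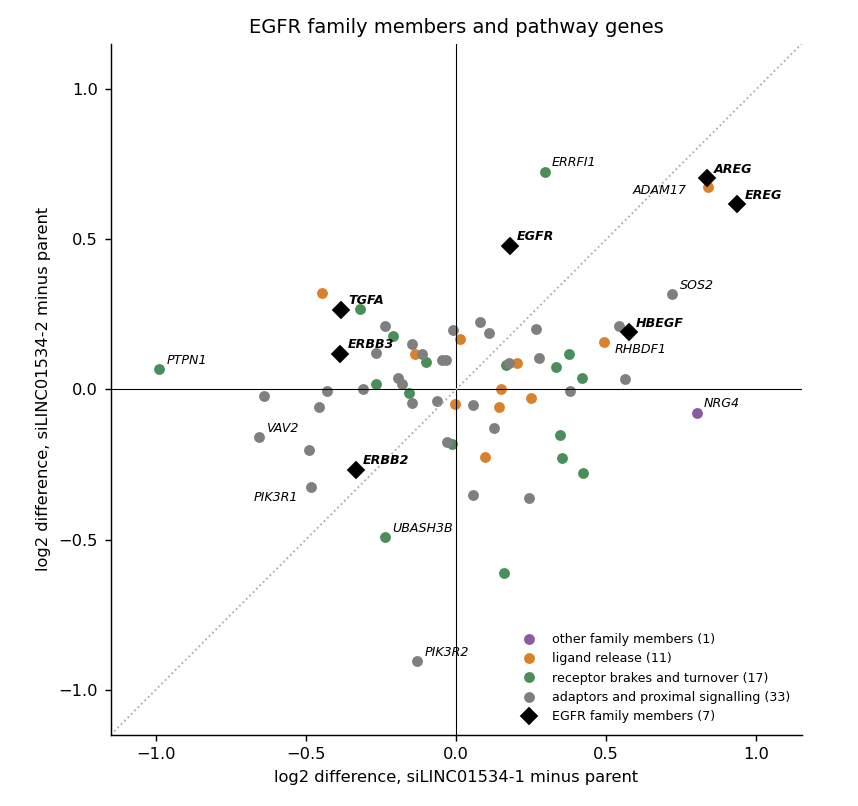
Difference from parent on the log2(FPKM + 1) scale with siLINC01534-1 (x axis) and with siLINC01534-2 (y axis) for the 7 tested members (black diamonds) and the 62 tested pathway genes (points, colored by list), the dotted line marking equal differences. AREG, EREG and ADAM17 lie together at the upper right, PTPN1 is lower with siLINC01534-1 and PIK3R2 mostly with siLINC01534-2.

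Among 6887 other genes whose mean FPKM reached 10, those whose profile over the 6 libraries was nearest to EREG were RFFL, CEBPG and TXNRD1. Their root mean square distance to EREG was 0.043, 0.066 and 0.071 on the log2 scale. The mean FPKM of CEBPG, for example, was 17.1 in parent, 33.0 with siLINC01534-1 and 26.5 with siLINC01534-2. The genes nearest to ERBB2 were RPUSD4, NUPL1 and NOL11, at distances of 0.022, 0.023 and 0.024. These distances describe 6 libraries in 3 groups, in which many genes share a profile.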

How the data were processed

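RNA-seq was analysed in 6 libraries of HCT116 cells, 2 each of parent, siLINC01534-1 and siLINC01534-2, grouped and numbered by the labels. The paper's methods give triplicate cultures and another RNA extraction kit than the labels. The authors prepared stranded poly(A) libraries, sequenced 75-base single-end reads, mapped them to hg19 (TopHat2 2.0.13, Bowtie2 2.2.3, SAMtools 0.1.19) and deposited FPKM made with Cufflinks 2.2.1. The annotation is not given in the sources used here. Read counts were not used here, and depth and reads per gene are estimates from transcript lengths less 200 bases.

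From the deposited FPKM, log2(FPKM + 1) was tested in limma 3.58.1 (R 4.3.3; lmFit, contrasts.fit, eBayes with a trend) for the 12203 genes whose mean FPKM reached 1, with group means, a common spread over all 6 libraries (3 residual degrees of freedom) and two-sided Benjamini-Hochberg adjusted p-values over all genes. The pseudocount understates changes of low genes. Ratios are of mean FPKM without a pseudocount. The fit was tested on simulated data.

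The members and gene lists were chosen with earlier results of these data known. All members are named; of each pathway list, genes past the threshold for both siRNAs whose siLINC01534 libraries all lay on 1 side of parent, at most 4, and genes under the minimum. The 3 nearest profiles are given for the member with the largest increase and the member with the largest decrease. Positions and 3′ UTRs are from GENCODE (GRCh37), promoters from RefSeq (GRCh38.p14). Alternatives were the pseudocount, the minimum, scaling, the trend, a replicate block, the siRNAs as 1 group and leaving out each library.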

Additional observations from a re-analysis of the deposited data

Results flagged for a closer look

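A test of the difference between the siRNAs was made in limma on log2(FPKM + 1), siLINC01534-1 minus siLINC01534-2. It passed the threshold for 3 of 7 tested members (42.9%), beside 41.8% of all genes. It also passed for 7 of the pathway genes picked because they passed for both siRNAs against parent. Of all 62 tested pathway genes, 40 (64.5%) passed. Among those named above but not picked by that rule, PTPN1 (-1.06, limma adjusted p = 1.6e-04) and NRG4 (0.88, limma adjusted p = 0.0027) passed too. Among members the difference was -0.51 for ERBB3, 0.32 for EREG and -0.65 for TGFA, and these 3 calls held under all alternatives tried. In ligand release it was 0.16 for ADAM17 and 0.33 for RHBDF1. Among receptor brakes it was -0.43 for ERRFI1 and 0.26 for EPS15. Among adaptors it was 0.40 for SOS2, 0.78 for PIK3R2 and -0.50 for VAV2. The call of ADAM17 was lost without any 1 of the 4 siLINC01534 libraries (limma adjusted p from 0.074 to 0.097). That of RHBDF1 was lost without the first (0.11) or the second (0.057) siLINC01534-1 library or the first siLINC01534-2 library (0.10), that of EPS15 without the second siLINC01534-1 library (0.081) or the first (0.056) or the second (0.083) siLINC01534-2 library, and that of SOS2 without the first (0.092) or the second (0.088) siLINC01534-1 library or the second siLINC01534-2 library (0.071), all by limma adjusted p.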

How the results depend on the processing

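For 7 members and 4 comparisons, 371 alternative values were computed, of which 334 kept their direction and their side of the threshold. Of the 28 pairs of member and comparison, 14 kept both under every alternative. EREG kept both in every alternative and comparison. With the 4 siLINC01534 libraries as 1 group, in which the gap between siRNAs adds to the error, the count for both siRNAs was 1 member (EREG), 1 pathway gene and 361 of all genes, against 4, 29 and 4541. With the groups kept apart, leaving out 1 library gave 2 to 4 members, 12 to 23 pathway genes and 2360 to 3811 of all genes for both siRNAs. It gave 4 to 6, 24 to 35 and 3987 to 5282 for siLINC01534-1, 1 to 3, 5 to 9 and 948 to 2065 for siLINC01534-2 (4, 13 and 2788 with all libraries), and 3 to 4, 26 to 36 and 3290 to 4562 between the siRNAs. The libraries that moved a count by over 1.5 times were both parent libraries for both siRNAs (members: 2 without the first; all genes: 2508 and 2360), with 16 pathway genes without the first siLINC01534-1 library. For siLINC01534-2 they were both parent libraries (all genes: 951 and 1032) and both of its own (1264 and 948), and its members were 2 without the first siLINC01534-1 library. Between the siRNAs they were the siLINC01534-1 libraries (26 pathway genes without the first, 3290 of all genes without the second). Such fits assume that the lone library of a group varies like the others. TGFA turned direction for both siRNAs without the first parent library (0.027 in place of -0.059, neither past the threshold; leaving out 1 library gave -0.15 to 0.027). Deviations of same-numbered libraries from their group means had correlations across genes of 0.11 (parent and siLINC01534-1), 0.027 (parent and siLINC01534-2) and -0.046 (between the siRNAs). With 2 libraries per group, these values cannot show whether the numbers pair the libraries. With a replicate block, 8 in place of 13 pathway genes passed for siLINC01534-2, and the calls gained or lost among members were EGFR for both siRNAs (limma adjusted p = 0.056), HBEGF for both (0.030) and HBEGF between the siRNAs (0.038). HBEGF for both siRNAs also passed with a pseudocount of 0.1 or 0.5 (limma adjusted p = 0.045 and 0.049). Without a filter on low values EGFR for both siRNAs (limma adjusted p = 0.062) and AREG for siLINC01534-2 (0.066) did not pass. With a minimum mean FPKM of 5, TGFA for siLINC01534-2 (0.044) and EGFR between the siRNAs (0.047) did. The causes of these changes were not tested. Leaving out a library also leaves fewer samples in the fit. Adding AREGB to AREG was not run, since AREGB has no row. At an estimated 17 to 96 reads per library, AREG and BTC are limited by depth.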
